A study of Mus musculus with 12 samples.

Results

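Isg15, Uba7, Ube2l6, Herc6 and Usp18 are the 5 mouse genes of ISG15 conjugation, chosen by symbol, and all 5 were found among the 24421 genes of the count files and among the 11638 genes kept for testing. They were followed in B16F10 cells, an established mouse melanoma line, in 4 groups of 3 replicates. Control cells received DMSO, the solvent of DAC, whereas SFN was dissolved in water by the study's methods. The DAC group received 5-aza-2′-deoxycytidine, an inhibitor of DNA methyltransferases, at 25 nM for 72 h. The SFN group received sulforaphane, an isothiocyanate from cruciferous plants, for 48 h, and the DAC+SFN group received both, with all cells collected at 72 h. By the sample labels the SFN dose was 5 nM in the SFN group and 5 µM in the DAC+SFN group, whereas the study's methods give the micromolar dose for both, so by the labels the comparisons of these groups may also differ in dose. The cells are of 1 cultured line, with no host tissue.

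ISG15 is a ubiquitin-like protein that cells join to lysines of other proteins. An activating enzyme (UBA7) charges ISG15, a conjugating enzyme (UBE2L6) carries it, a ligase (HERC6 in mouse) passes it to the target and the protease USP18 takes it off again. All of these genes are known as targets of type I interferon, a secreted antiviral signal, and USP18 also dampens that signal at the interferon receptor. Transcript counts were measured here, so the amounts of the proteins and of conjugates are not known from these data.

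In the libraries, 15880957 to 27291436 counts per sample fell on genes, and the members held 39 to 1782 counts per library. Values are counts per 1e+06 counts of the library (CPM) after TMM scaling, as mean ± SD with n = 3. This spread is unpaired and includes the differences between replicate numbers. Changes are log2 fold changes from edgeR's quasi-likelihood test with the replicate number as a block, and a change passed the test when its Benjamini-Hochberg adjusted p-value over all 11638 genes was under 0.05. The sum of 8 melanocyte marker transcripts was 29110 to 38300 CPM in every group. Among 10 immune cell markers, Cd4, Adgre1 and Nkg7 were at 0 in all libraries, and Ptprc and Cd3e had at most 2 and 1 counts. The sum of the immune markers, nearly all of it Cd68, ranged from 2.36 to 4.78 CPM in control, 3.93 to 6.13 CPM with DAC, 6.16 to 9.03 CPM with SFN and 8.50 to 11.2 CPM with DAC+SFN, and its part in the results was not tested.

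The members lie apart in the genome, except that Herc6 and Usp18 share a chromosome. In mm10 with GENCODE M21, Isg15 (Entrez Gene 100038882) lies at chr4:156199424-156200818 on the minus strand and has 2 exons. Uba7 (Entrez Gene 74153) lies at chr9:107975505-107984060 and has 24 exons, and Ube2l6 (Entrez Gene 56791) lies at chr2:84798828-84810335 and has 4 exons. Herc6 (Entrez Gene 67138) lies at chr6:57581000-57664632 with 23 exons and Usp18 (Entrez Gene 24110) at chr6:121245906-121270917 with 11 exons, all on the plus strand. Uba7, Herc6 and Usp18 overlap the annotated genes Gm20661, Gm45193 and Gm44148. Gm20661 and Gm45193 lie on the same strand as Uba7 and Herc6, and Gm44148 lies on the strand opposite to Usp18. Reads of the overlaps may thus be shared or lost in the counts of Uba7 and Herc6 under any strand setting. For Usp18 this depends on the strand setting of the counting, which is not given in the sources used here.

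The bases just before the start sites are shown with their matches to the interferon-stimulated response element (ISRE), a motif bound by interferon-activated factors. Whether such matches go with the response of the members to DAC was not tested. The 100 bases upstream of the RefSeq start are given 5′ to 3′ on the strand of the gene (RefSeq, GRCm38.p6), and capitals mark matches to the ISRE or to the shorter core motif of interferon regulatory factors. The windows are chr4:156200819-156200918 (minus strand) for Isg15, chr9:107975467-107975566 for Uba7, chr2:84798728-84798827 for Ube2l6 and chr6:57580892-57580991 for Herc6. The RefSeq start of Uba7 lies inside the GENCODE span given above, so part of its window, with the marked match, lies inside that span too.
Isg15: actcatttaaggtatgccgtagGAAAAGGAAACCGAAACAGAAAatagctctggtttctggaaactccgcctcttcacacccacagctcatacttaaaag
Uba7: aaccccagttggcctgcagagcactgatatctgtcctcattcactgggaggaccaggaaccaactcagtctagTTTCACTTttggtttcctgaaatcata
Ube2l6: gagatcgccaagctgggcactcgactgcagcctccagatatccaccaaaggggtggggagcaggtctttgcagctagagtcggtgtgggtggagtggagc
Herc6: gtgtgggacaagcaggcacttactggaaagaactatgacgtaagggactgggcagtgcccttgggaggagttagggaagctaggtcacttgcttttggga

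Motifs were searched on both strands in the 250 bases upstream of the start, in the 4 members that have a promoter in the table, which are all but Usp18. The ISRE was searched as GAAANNGAAA. Isg15 held 3 overlapping matches, from base -78 to -57 relative to the start, and the other 3 promoters held 0. Of 32851 mouse promoters, 2.98% held an ISRE match and 4 promoters (0.0122%) held 3 or more. Among 40 interferon-stimulated genes with a promoter in the table, 16 (40.0%) held one. The core motif AANNGAAA, which lies within the ISRE, had 4 matches in Isg15 and 1 on the reverse strand in Uba7, from -27 to -20, and was present in 21.3% of all promoters. The gamma-activated site TTCNNNGAA was not matched in these 4 promoters and was present in 7.02% of all promoters. CpG dinucleotides, the sites that DNA methyltransferases modify, numbered 4 in Isg15, 1 in Uba7, 11 in Ube2l6 and 1 in Herc6, and the median of all promoters was 6. DNA methylation was not analysed here.

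Isg15 and Usp18 were the members with the highest fold changes with DAC, each about doubling over the cells with and without SFN. Ube2l6 rose by a smaller step, Uba7 did not pass the test, and Herc6 stayed near its control level. In this comparison, DAC averaged over SFN, Isg15 rose by a log2 fold change of 1.17 (adjusted p = 0.0033, SE 0.18), Usp18 by 1.04 (SE 0.18, adjusted p = 0.00647) and Ube2l6 by 0.35 (SE 0.09, adjusted p = 0.0405). Thus 3 of 5 members passed the test upward, where 3.07% of all genes did, and 2 of them also had a fold change above 2, where 0.172% of all genes did. Ordered by log2 fold change among the 11638 genes, Isg15 was at rank 11, Usp18 at rank 17, Uba7 at rank 460, Ube2l6 at rank 465 and Herc6 at rank 6146.

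**Figure D1:**
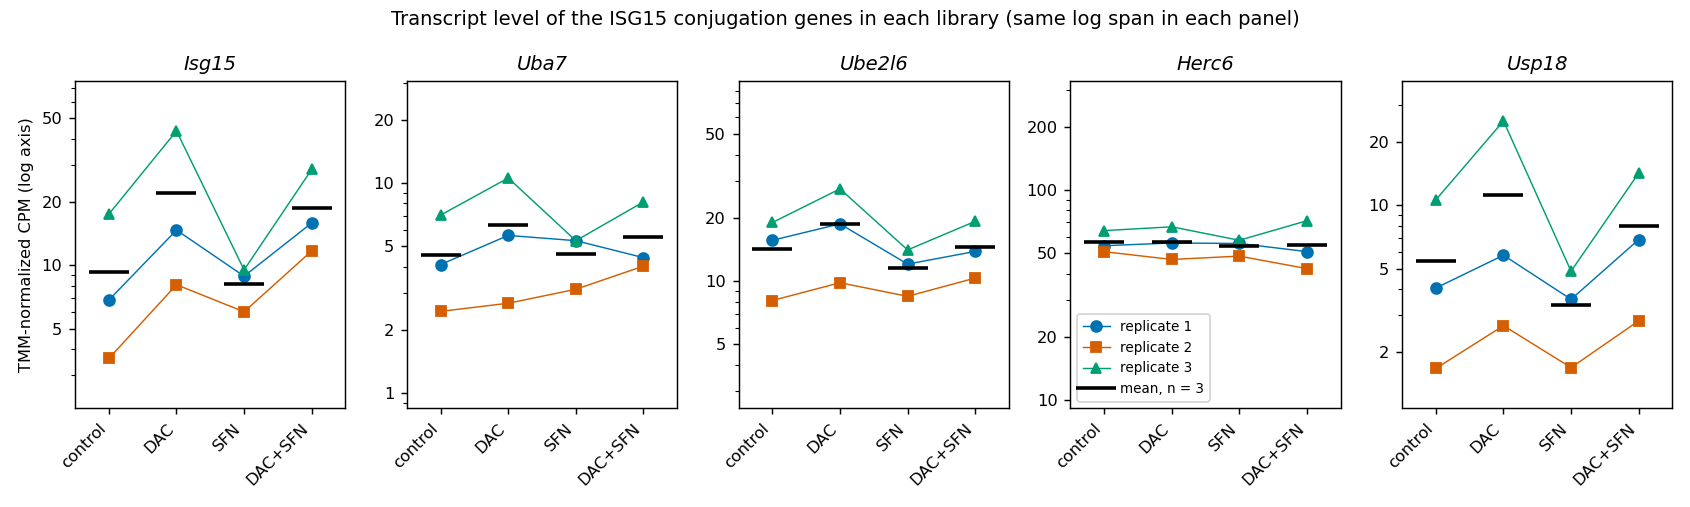
Level of each member in TMM-normalized CPM (log axis) in control, DAC, SFN and DAC+SFN. Points are single libraries, lines join libraries with the same replicate number and black bars are the means of 3 replicates. Replicate 3 lies above replicate 2 in every group and gene, and the Isg15 means of 22.2 CPM with DAC and 18.8 CPM with DAC+SFN lie above 9.34 CPM in control and 8.15 CPM with SFN.

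Isg15, which encodes the modifier itself, was at 6.85, 3.61 and 17.6 CPM in replicates 1, 2 and 3 of control. It was at 14.7, 8.10 and 43.6 CPM with DAC, at 8.89, 6.02 and 9.53 CPM with SFN and at 15.9, 11.7 and 28.6 CPM with DAC+SFN. Each DAC library was above the control library of the same replicate number, and each DAC+SFN library was above its SFN library. The ranges of the groups overlapped in all comparisons except one: all 3 DAC+SFN libraries were above all 3 SFN libraries, which held for 5.23% of all genes. In order, the means were 22.2 ± 18.9 CPM with DAC, 18.8 ± 8.80 CPM with DAC+SFN, 9.34 ± 7.30 CPM in control and 8.15 ± 1.87 CPM with SFN. DAC and DAC+SFN, and control and SFN, were neighbours in this order that did not differ beyond their spread.

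In the comparison of DAC with control, Isg15 had a log2 fold change of 1.22 (SE 0.25, 95% interval 0.69 to 1.74, adjusted p = 0.059) and did not pass the test. DAC+SFN against SFN gave 1.13 (SE 0.25, adjusted p = 0.0422), and DAC+SFN against control gave 1.13 (SE 0.25, adjusted p = 0.00333), both past the test and above a fold change of 2. SFN alone gave a value of 0.005 (95% interval -0.55 to 0.56, adjusted p = 0.994). Adding SFN to DAC gave -0.09 (95% interval -0.58 to 0.41, adjusted p = 0.845). The intervals of both SFN differences lie below a doubling. In bulk RNA, a higher level per cell and a larger number of expressing cells cannot be told apart.

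Uba7, which encodes the activating enzyme, was the least abundant member per length, although reads may be lost to its overlap with Gm20661. It was at 4.09, 2.45 and 7.04 CPM in replicates 1, 2 and 3 of control, at 5.63, 2.68 and 10.6 CPM with DAC, at 5.32, 3.12 and 5.32 CPM with SFN and at 4.42, 4.02 and 8.13 CPM with DAC+SFN. All groups overlapped. The means ran from 6.29 ± 3.98 CPM with DAC through 5.52 ± 2.26 CPM with DAC+SFN and 4.59 ± 1.27 CPM with SFN to 4.53 ± 2.32 CPM in control, and no neighbours in this order differed beyond their spread. The log2 fold change with DAC was 0.46 (SE 0.21, adjusted p = 0.474) against control and 0.35 (SE 0.15, 95% interval 0.03 to 0.67, adjusted p = 0.198) averaged over SFN. Uba7 passed the test in no treatment comparison.

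Ube2l6 encodes the conjugating enzyme that carries charged ISG15. Its level was 15.6, 8.09 and 19.0 CPM in replicates 1, 2 and 3 of control, 18.7, 9.83 and 27.5 CPM with DAC, 12.1, 8.47 and 14.1 CPM with SFN and 13.8, 10.3 and 19.2 CPM with DAC+SFN. All groups overlapped, with the SFN libraries of replicates 1 and 3 below their control libraries. The means were 18.7 ± 8.82 CPM with DAC, 14.5 ± 4.48 CPM with DAC+SFN, 14.2 ± 5.59 CPM in control and 11.5 ± 2.84 CPM with SFN, and neighbours in this order did not differ beyond their spread. This spread is unpaired, and in edgeR's test with the replicate block DAC+SFN against DAC gave -0.33 (95% interval -0.60 to -0.06, adjusted p = 0.092). Ube2l6 was the member that passed the test in both directions. It rose with DAC averaged over SFN, as given above, and fell by 0.30 on the log2 scale (SE 0.09, adjusted p = 0.0237) with SFN averaged over DAC, where 13.5% of all genes passed downward. In DAC+SFN against control its log2 fold change was 0.05 (95% interval -0.23 to 0.33, adjusted p = 0.802).

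Herc6, the ligase gene, was at 54.3, 50.9 and 64.0 CPM in replicates 1, 2 and 3 of control and at 55.9, 46.7 and 66.8 CPM with DAC. It was at 55.6, 48.4 and 57.6 CPM with SFN and at 50.9, 42.2 and 71.4 CPM with DAC+SFN. The 4 groups lay over each other, with means of 56.5 ± 10.0 CPM with DAC, 56.4 ± 6.85 CPM in control, 54.8 ± 15.0 CPM with DAC+SFN and 53.9 ± 4.83 CPM with SFN, none of which differed from its neighbours beyond the spread. The log2 fold change with DAC averaged over SFN was -0.002 (SE 0.06, 95% interval -0.13 to 0.12, adjusted p = 0.99), an interval that leaves room for a fold change between 0.915 and 1.09. With SFN averaged over DAC it was -0.06 (95% interval -0.19 to 0.07, adjusted p = 0.491). Herc6 had the smallest SE of the members in each comparison and the most counts.

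Usp18, the protease gene, was at 4.05, 1.68 and 10.6 CPM in replicates 1, 2 and 3 of control and at 5.80, 2.68 and 25.2 CPM with DAC. It was at 3.58, 1.69 and 4.87 CPM with SFN and at 6.87, 2.83 and 14.2 CPM with DAC+SFN. All groups overlapped, and replicate 3 was the highest library in each. The means were 11.2 ± 12.2 CPM with DAC, 7.98 ± 5.79 CPM with DAC+SFN, 5.45 ± 4.64 CPM in control and 3.38 ± 1.60 CPM with SFN. Neighbours in this order did not differ beyond their spread, which is unpaired. Within replicates 1, 2 and 3, DAC+SFN was above control by 0.75, 0.72 and 0.42 in log2 CPM. The pairs of DAC+SFN with DAC and of SFN with control had differences of both signs. Usp18 had a log2 fold change of 0.92 (adjusted p = 0.174, SE 0.25) in DAC against control and of 0.61 (SE 0.25, adjusted p = 0.0778) in DAC+SFN against control, neither past the test. Without DAC replicate 3 the first of these was 0.38 (adjusted p = 0.872). DAC+SFN against SFN gave 1.15 (SE 0.27, adjusted p = 0.0471), past the test and above a fold change of 2. With SFN averaged over DAC the value was -0.42 (95% interval -0.81 to -0.03, adjusted p = 0.0933). Without the replicate 3 libraries this value was 0.03 (adjusted p = 0.896), so its direction rested on that replicate. With all libraries it was -0.53 (adjusted p = 0.0408) in edgeR's version 4 fit and -0.44 (adjusted p = 0.0166) with no filter.

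Counted by comparison, DAC against control gave 0 members past the test, where 0.180% of all genes passed. In edgeR's test 4 of 5 members had an unadjusted p-value under 0.05, where 1170 of all 11638 genes had one. SFN against control gave 0 members past the test, where 13.9% of genes passed. It also gave 0 members at an unadjusted p-value under 0.05, where 3356 of 11638 genes had one. DAC+SFN against control gave 1 member upward, where 17.0% of genes passed upward and 2.33% also had a fold change above 2. DAC+SFN against DAC gave 0 members past the test, where 16.1% of genes passed in either direction. It gave 1 member, Ube2l6, at an unadjusted p-value under 0.05, where 3553 of 11638 genes had one. DESeq2's Wald test also gave 0 members in the 3 comparisons without a call. DAC+SFN against SFN gave 2 members upward, where 0.937% of genes passed upward and 0.112% also had a fold change above 2. The interaction of DAC and SFN is a test for a DAC response that differs with SFN present. It gave 0 members and 0% of all genes past the test in edgeR. No member had an unadjusted p-value under 0.05, where 683 of 11638 genes had one. Member values of the interaction ran from -0.22 to 0.22 on the log2 scale, with adjusted p-values from 0.981 to 1, and for Isg15 the 95% interval was -0.84 to 0.66.

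The calls depended on which libraries were used. DAC averaged over SFN gave 0 members past the test without the replicate 1 libraries, with adjusted p-values of 0.0936 for Isg15 and 0.0892 for Usp18, and 1 member without the replicate 2 libraries, while its log2 fold changes stayed between 0.96 and 1.30 for Isg15 and between 0.71 and 1.17 for Usp18. The Ube2l6 call was lost in 12 of 15 fits that left out libraries, and without the replicate block all 3 calls were lost (0 members, adjusted p = 0.387 for Isg15). The call of Isg15 in DAC+SFN against control was lost without the replicate 1 libraries (adjusted p = 0.0606). In DAC+SFN against SFN, the Isg15 call was lost in 6 of 9 such fits and the Usp18 call in 7 of 9, and without SFN replicate 3 the log2 fold changes were 0.71 (adjusted p = 0.289) and 0.67 (adjusted p = 0.38). Conversely, a fit of the DAC and control libraries alone called Isg15 (adjusted p = 3.31e-07), Usp18 (adjusted p = 0.000693) and Ube2l6 (adjusted p = 0.0185) in DAC against control.

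**Figure D2:**
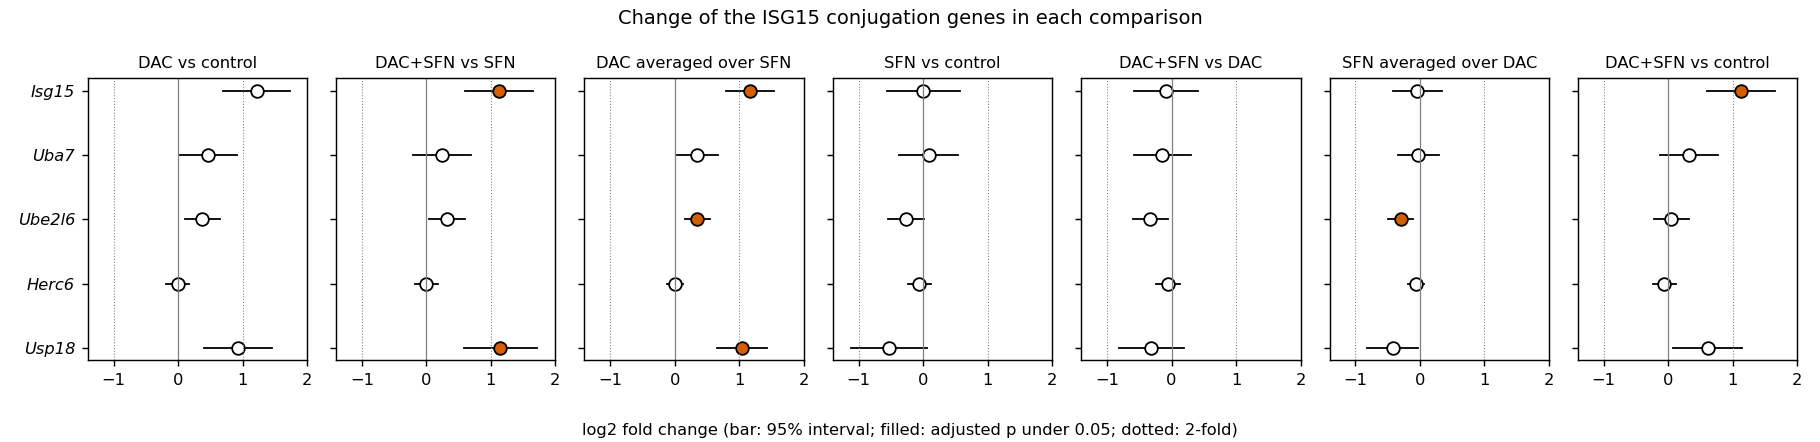
Log2 fold change of each member in 7 comparisons, with the 95% interval as a bar, and filled points past the test at an adjusted p-value under 0.05. Dotted lines mark 2-fold changes. Isg15 and Usp18 lie near 1 in the DAC comparisons, Herc6 lies near 0 throughout, and the SFN comparisons lie at or below 0 except for Uba7 and Isg15 with SFN alone.

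The differences within a replicate number show how regular each response was. In replicates 1, 2 and 3, Isg15 was higher with DAC than in control by 1.10, 1.15 and 1.31 in log2 CPM, and higher with DAC+SFN than with SFN by 0.84, 0.95 and 1.58. For Usp18 these differences were 0.51, 0.65 and 1.24, and 0.93, 0.71 and 1.53. Of the 6 pairs that differ in DAC, Isg15, Usp18 and Ube2l6 were higher with DAC in 6, Uba7 in 5 and Herc6 in 3, and 8.84% of all genes were higher in every pair.

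With SFN, the replicate that stood apart was not the same for each member. For Isg15 and Usp18, and for Uba7 between SFN and control, it was replicate 3. Isg15 differed between SFN and control by 0.37, 0.72 and -0.88 in log2 CPM in replicates 1, 2 and 3, and between DAC+SFN and DAC by 0.11, 0.53 and -0.61. Uba7 differed between SFN and control by 0.37, 0.34 and -0.40, and between DAC+SFN and DAC by -0.34, 0.57 and -0.38. Ube2l6 had differences of -0.37, 0.07 and -0.43, and of -0.43, 0.07 and -0.51. Those of Usp18 were -0.175, 0.013 and -1.113, and 0.243, 0.074 and -0.82. In both comparisons of Ube2l6, and in the second of Uba7, replicates 1 and 3 were below 0 and replicate 2 was above it. Without the replicate 3 libraries, the log2 fold change of Isg15 with SFN averaged over DAC was 0.41 (adjusted p = 0.0157), against -0.04 (adjusted p = 0.888) with them. That of Ube2l6, which is a call with all libraries, was then -0.20 (adjusted p = 0.186). The Ube2l6 call was lost in 7 of 15 fits that left out libraries, namely those without control 1, DAC 3, SFN 1, SFN 3 or DAC+SFN 1 and those without all libraries of replicate 1 or of replicate 3, and the lowest and highest values over all 15 were -0.45 and -0.20.

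**Figure D3:**
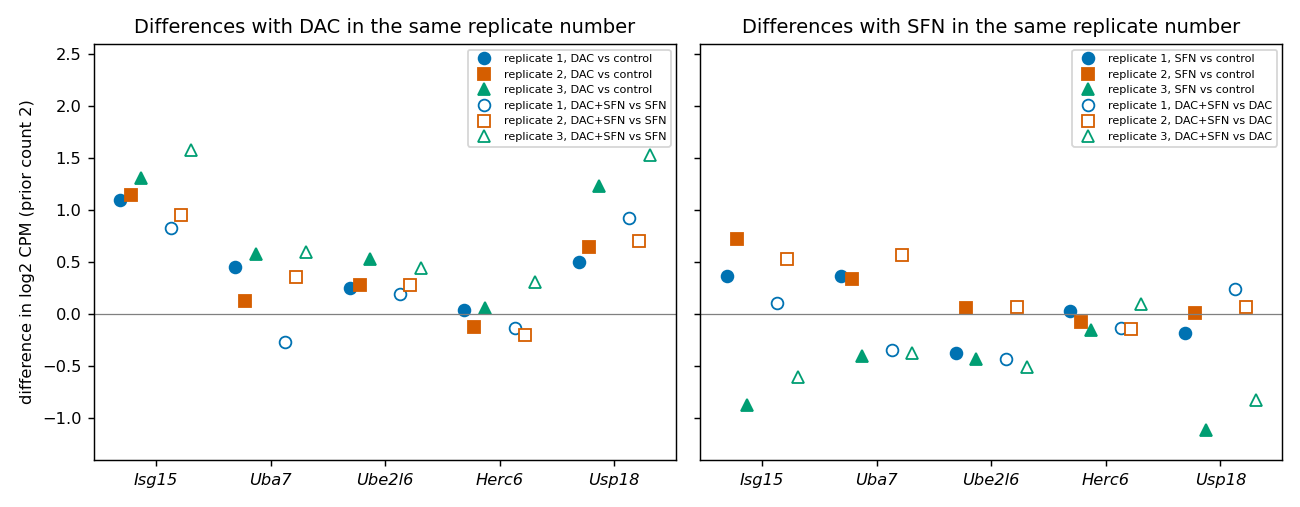
Difference in log2 CPM within each replicate number, for DAC (left) and SFN (right). Filled symbols compare single drugs with control, open symbols compare DAC+SFN with the other single drug. With DAC all 6 points of Isg15, Ube2l6 and Usp18 lie above 0, and with SFN the Isg15 points of replicate 3 lie at -0.88 and -0.61 while the other replicates lie above 0.

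More of the spread of the members went with the replicate number than with the treatments. All 5 members differed between replicate numbers (adjusted p from 5.85e-06 for Usp18 to 0.000818 for Herc6), as did 33.9% of all genes. Replicate 3 was above replicate 2 in all 5, by a log2 fold change of 2.50 for Usp18 (SE 0.23), 1.68 for Isg15 (SE 0.22), 1.30 for Uba7, 1.08 for Ube2l6 and 0.46 for Herc6, where 13.8% of all genes passed upward. Replicate 3 was also above replicate 1 in all 5 members, where 3.77% of genes passed upward, and replicate 2 was below replicate 1 in 4 of 5, where 12.9% passed downward. Herc6 missed that last test (adjusted p = 0.0542). Replicate 2 was the lowest and replicate 3 the highest library in all 4 groups for Isg15, Ube2l6, Herc6 and Usp18 and in 3 of 4 for Uba7, and 1.86% of all genes had this order in every group.

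As shares of the sum of squares of log2 CPM over the 12 libraries, the replicate number held 51.6% for Isg15, 78.6% for Uba7, 75.8% for Ube2l6, 81.1% for Herc6 and 74.7% for Usp18, where the median gene had 31.2%. The condition held 37.5% for Isg15, 18.9% for Usp18, 17.4% for Ube2l6, 7.14% for Uba7 and 2.20% for Herc6, where the median gene had 33.8%. The labels call the replicates independent biological repeats. Their library numbers run from 1 to 4, 5 to 8 and 11 to 14 for replicates 1, 2 and 3, so culture and library preparation cannot be told apart.

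Isg15 and Usp18, the modifier and the enzyme that removes it, had a Pearson correlation of 0.94 in log2 CPM over the 12 libraries, and of 0.91 after the means of condition and replicate number were removed. For Uba7 and Ube2l6 the values were 0.93 and 0.85, and for Isg15 and Uba7 0.90 and 0.87. Herc6 stood at 0.66 with Isg15, 0.83 with Uba7, 0.81 with Ube2l6 and 0.82 with Usp18, and at 0.18, 0.28, 0.11 and 0.32 after this removal. These libraries share conditions and replicate numbers, so the correlations are descriptions without a test.

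**Figure D4:**
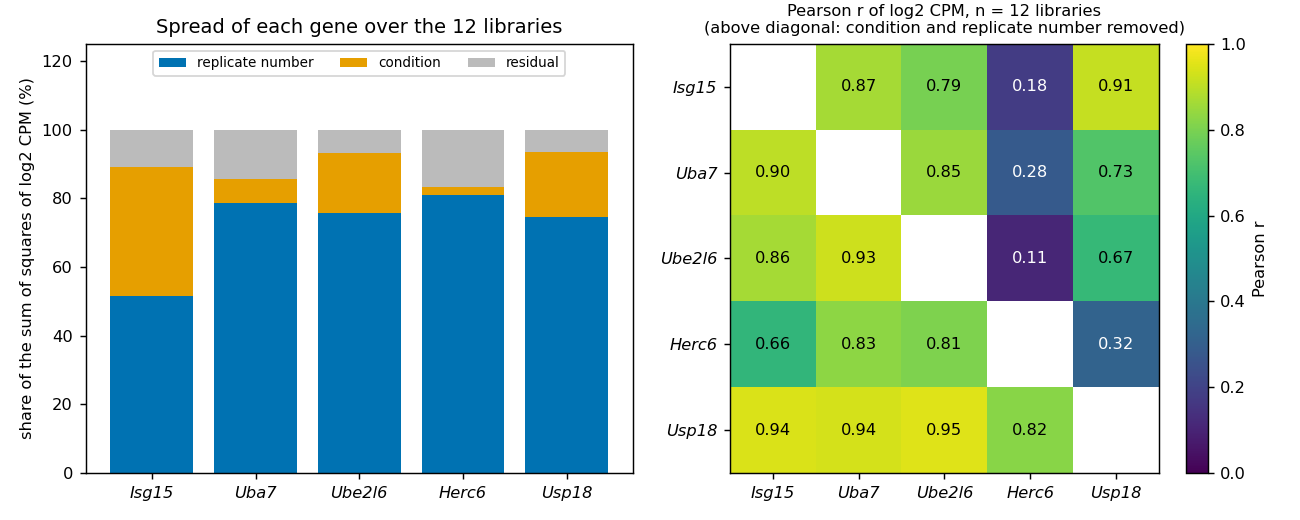
Left, shares of the sum of squares of log2 CPM over the 12 libraries that go with replicate number, condition and residual. Right, Pearson r between members over 12 libraries, below the diagonal as measured and above it after condition and replicate number were removed. The replicate number holds 51.6% to 81.1%, and Herc6 has the lowest values above the diagonal, 0.11 to 0.32.

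Among the 10 genes whose pattern over the 12 libraries was most like the mean of the members were Parp14 (r = 0.99), Parp12, Gbp7, Rtp4, Trim21, Gm6548, Igtp, Parp9 and Samd9l (r = 0.98), and 8 of these 10 are in a list of 50 interferon-stimulated genes that excludes the members. Of the 46 genes of that list that were tested, 38 were among the 100 most alike. Isg15 was most like Dhx58, Lgals9 and Ifih1 (r = 0.98 for each), and Usp18 was most like Irf7, Parp14 and Trim21 (r from 0.98 to 0.99). Uba7 was most like Igtp, Xaf1 and Trim21, and Ube2l6 was most like Gm6548, Parp9 and Irf9. The closest genes to Herc6 were Vps4b (r = 0.94), Ttc5 and Mgat3, of which 0 are in the list, and Isg15 came at rank 818 in likeness to Herc6.

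Per kilobase of the principal transcript, Isg15 was at 9.07, 4.78 and 23.2 CPM per kb in replicates 1, 2 and 3 of control and Herc6 at 11.4, 10.7 and 13.4 CPM per kb. Isg15 was thus above Herc6 in replicate 3 only, and the means were 12.4 ± 9.65 CPM per kb for Isg15 and 11.8 ± 1.44 CPM per kb for Herc6. Ube2l6 was at 9.13 ± 3.58, Usp18 at 3.08 ± 2.62 and Uba7 at 1.42 ± 0.727 CPM per kb. With DAC, Isg15 was at 29.3 ± 25.0 CPM per kb and Herc6 at 11.8 ± 2.11 CPM per kb. In CPM the ratio of Isg15 to Herc6 was 0.126, 0.0711 and 0.274 in replicates 1, 2 and 3 of control and 0.264, 0.174 and 0.654 with DAC. The ratio with SFN was 0.160, 0.124 and 0.165, that with DAC+SFN was 0.313, 0.278 and 0.401, and every library with DAC was above the library of its replicate number without it.

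Of the 46 other interferon-stimulated genes tested, 45 had a value above 0 with DAC averaged over SFN, as Isg15 and Usp18 did. Of these 46, 38 passed the test upward, where 3.07% of all genes did, and 0 downward, with a median log2 fold change of 0.69, beside 0.01 over all genes and 0.35 over the members. Without the replicate block 0 of the 46 passed edgeR's test (13 at an unadjusted p-value under 0.05), only 1 gene of all those tested passed, and the list median was 0.74. Without the libraries of replicate 1 the list gave 2 past the test (median 0.72), without those of replicate 2 it gave 19 (median 0.75), and without those of replicate 3 it gave 27 of 44 tested (median 0.53). Leaving out 1 library gave 23, without SFN replicate 3, to 40. Against control alone, all 46 had a value above 0 with DAC and 0 passed the test. In edgeR's test 39 of them had an unadjusted p-value under 0.05, where 1170 of all 11638 genes had one. The number past the test was 7 with edgeR's version 4 fit, 9 with DESeq2's Wald test and 32 of 50 with no filter. It was 36 of 45 with only the groups compared, and 0 with the robust fit and without the replicate block. With SFN averaged over DAC, 3 passed upward and 13 downward, with a median of -0.18, where 16.1% of all genes passed upward and 13.5% downward. Without the replicate block 0 passed edgeR's test in either direction and 1 had an unadjusted p-value under 0.05, and without the replicate 3 libraries 11 passed upward and 2 downward, with a median of 0.02. The interferon genes themselves were at or near 0. Ifnb1 had 0 to 4 counts per library, Ifne 0 to 3, and 8 other type I genes, Ifng, Ifnl2 and Ifnl3 were at 0 in all 12 libraries. A count of 0 allows up to 3 counts, which is 0.11 to 0.189 CPM in these libraries by counting error only.

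Partner genes of the ISG15 system gave 2 of 11 tested upward and 1 downward with DAC averaged over SFN, with a median of -0.02, where 3.07% of all genes passed upward and 2.15% downward. Both upward genes are also in the interferon-stimulated list. Trim25, a ligase for ubiquitin and ISG15, rose by a log2 fold change of 0.56 (adjusted p = 0.00465, SE 0.09), and Stat2, the interferon signalling factor that recruits USP18 to the receptor, rose by 0.35 (SE 0.08, adjusted p = 0.0307). Skp2, a ubiquitin ligase subunit that directs the breakdown of USP18, fell by 0.22 on the log2 scale (SE 0.05, adjusted p = 0.0303). The receptor genes Ifnar1 and Ifnar2 had values of -0.07 (adjusted p = 0.416) and -0.03 (adjusted p = 0.804). Arih1, another ligase, had -0.002 (adjusted p = 0.986).

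With SFN averaged over DAC, 1 of these 11 partners passed upward, where 16.1% of all genes did, and 4 downward, where 13.5% did. Without the replicate block 0 passed upward and 1 downward. Ifnar1 fell by 0.22 on the log2 scale (SE 0.04, adjusted p = 0.00161), as did Stat2 by 0.31 (SE 0.08, adjusted p = 0.0133), Skp2 by 0.23 (SE 0.05, adjusted p = 0.00563) and Usp21, a ubiquitin protease, by 0.16 (SE 0.05, adjusted p = 0.0179). Arih1 rose by 0.14 (SE 0.04, adjusted p = 0.0271), and Ifnar2 had a value of 0.14 (adjusted p = 0.0645).

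The enzymes of ubiquitin and of the other ubiquitin-like proteins gave 0 of 31 tested upward and 2 downward with DAC averaged over SFN. The list median was -0.01, and of all genes 3.07% passed upward and 2.15% downward. The modifier gene Sumo2 was among the 2 downward genes of the list, with a log2 fold change of -0.18 (adjusted p = 0.0309). The closest relatives of the members had log2 fold changes of 0.04 for Uba1 (adjusted p = 0.553), the ubiquitin-activating enzyme related to UBA7, and -0.06 for Ube2l3 (adjusted p = 0.407), related to UBE2L6. The ligase genes Herc3 and Herc4 had 0.11 (adjusted p = 0.217) and 0.003 (adjusted p = 0.985). With SFN averaged over DAC, 5 of the 31 passed upward and 2 downward, shares near or below the 16.1% and 13.5% of all genes, and Herc3 rose by 0.44 (SE 0.05, adjusted p = 1.8e-05).

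**Figure D5:**
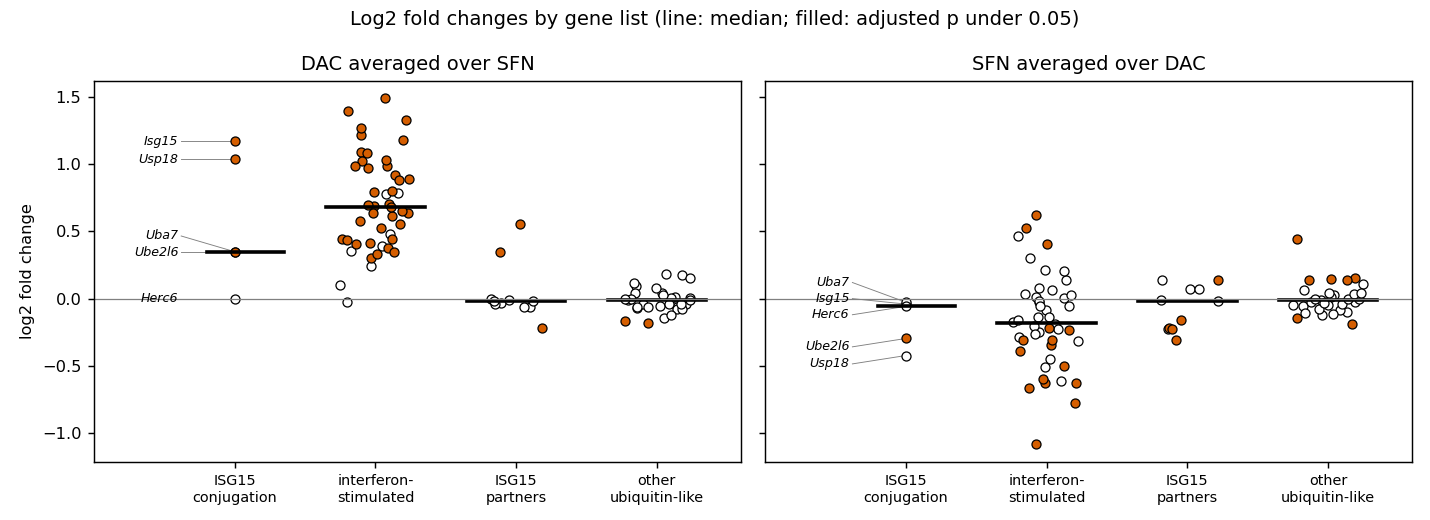
Log2 fold changes with DAC averaged over SFN (left) and with SFN averaged over DAC (right) for the members and for tested genes of 3 other lists. Points are genes, filled where the adjusted p-value is under 0.05, and lines are medians. With DAC the median of the interferon-stimulated genes is 0.69 and those of the partner and other ubiquitin-like genes are -0.02 and -0.01.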

How the data were processed

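RNA from 12 B16F10 samples (4 groups, 3 replicates) was sequenced by the authors with a stranded poly(A) kit. The deposited files hold raw read counts per gene symbol, which the authors made, per the study's methods and the submitters' processing notes, with FastQC 0.11.7, Trimmomatic 0.38, TopHat2 2.1.1 on mm10 and HTSeq, keeping reads aligned to 1 place. The gene annotation and strand setting of the counting are not given in the sources used here. Some reads of overlapping genes may thus be uncounted.

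Groups and replicate numbers were taken from the sample labels. A gene was kept when 3 or more libraries had 1 CPM or more (11638 of 24421 genes), where 1 CPM stood for 15.9 to 27.3 counts. Counts were scaled by TMM and tested two-sided with glmQLFTest in edgeR 4.0.16 (legacy fit, R 4.3.3), with all 12 samples in 1 model of group and replicate number. The study's methods correct for a batch without naming it, and the replicate number took its place. After group means were removed, libraries of the same replicate number correlated across genes by 0.541 on average over 18 pairs (0.264 to 0.73), so the numbers were taken to pair the libraries. Fold changes carry a prior count of 0.125, log2 CPM 0.5 and differences within replicate numbers 2. SE was taken as the absolute fold change on the log2 scale over the root of F. DAC averaged over SFN is the mean of DAC against control and DAC+SFN against SFN. The fit was also run on simulated data, of which no outcome is given here, so that run is no check of the calls.

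The members, gene lists and tests were chosen with earlier results of these data known, and the tests between replicate numbers after the data were seen. All members are named in every comparison. Of the lists, only preset partner and relative genes, interferon genes, listed genes past the test where fewer than 6 were, and the genes most like the members are named. Alternatives were DESeq2 1.42.0 size factors and Wald test, edgeR's version 4 and robust fits, no replicate block, no filter, a minimum of 10 counts in all samples, only the groups compared, an added fold change above 2, and libraries left out. Gene positions came from GENCODE M21, promoters from RefSeq. Figures were drawn with matplotlib 3.10.9. Values of a few single genes were left out.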

Additional observations from a re-analysis of the deposited data

How the results depend on the processing

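Of 755 values of the members under alternative settings, 613 kept their direction and their side of the test's threshold, 46 kept the direction and lost the call, 16 gained one, and 80 had the opposite sign, 70 of these with libraries left out. The values that turned sign were not past the test with all libraries. The cause of the changes was not tested. Leaving out libraries means fewer samples. DESeq2's size factors and the filter of at least 10 counts in every sample changed no call of a member. At 39 to 1782 counts per library, Usp18 and Uba7 had the widest relative counting error.

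The numbers of members past the test changed as follows. DAC averaged over SFN (3) gave 0 without the replicate block and 0 to 3 with libraries left out. DAC against control (0) gave 1 with edgeR's version 4 fit, 2 with no filter, 3 with only the groups compared and 0 to 1 with libraries left out, the 1 without replicate 3. DAC+SFN against control (1) gave 2 with DESeq2's Wald test, with no filter and with only the groups compared, 0 without the block and 0 (without replicate 1) to 2 (without replicate 3) with libraries left out. DAC+SFN against DAC (0) gave 1, Ube2l6, with no filter and 0 to 1 with libraries left out, the 1 without replicate 2. DAC+SFN against SFN (2) gave 1 with DESeq2's Wald test, 0 with the robust fit, 0 without the block and 0 to 2 with libraries left out. SFN averaged over DAC (1) gave 0 with a fold change above 2 required, 2 with edgeR's version 4 fit and with no filter, 0 without the block and 0 to 2 with libraries left out, the 2 without DAC replicate 1. The other 2 counts, of SFN against control and of the interaction, stayed at 0.

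Without the replicate block, the log2 fold change of Herc6 was 0.016 with DAC averaged over SFN and 0.006 in DAC against control, and that of Isg15 was -0.188 in SFN against control. With only the groups compared, the last 2 were 0.001 and -0.011. With no filter, Herc6 had -0.013 in DAC+SFN against SFN and -0.003 in the interaction, and Isg15 -0.004 in SFN against control. Isg15 had -0.079 there with edgeR's version 4 fit and 0.039 with SFN averaged over DAC in DESeq2's Wald test.

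With libraries left out, the lowest and highest log2 fold changes of Herc6 were -0.103 and 0.074 for DAC averaged over SFN, -0.043 and 0.054 for DAC against control, -0.191 and 0.014 for DAC+SFN against DAC, -0.164 and 0.094 for DAC+SFN against SFN, -0.192 and 0.029 for DAC+SFN against control, -0.116 and 0.03 for SFN against control and -0.124 and 0.095 for the interaction. Those of Isg15 were -0.31 and 0.292 for DAC+SFN against DAC, -0.303 and 0.409 for SFN averaged over DAC, -0.297 and 0.527 for SFN against control and -0.504 and 0.315 for the interaction. Those of Uba7 were -0.377 and 0.103 for DAC+SFN against DAC, -0.045 and 0.49 for DAC+SFN against SFN, -0.204 and 0.198 for SFN averaged over DAC, -0.105 and 0.371 for SFN against control and -0.495 and 0.031 for the interaction. Those of Ube2l6 were -0.085 and 0.171 for DAC+SFN against control and -0.179 and 0.075 for the interaction. Those of Usp18 were -0.576 and 0.218 for DAC+SFN against DAC, -0.642 and 0.032 for SFN averaged over DAC and -0.241 and 0.764 for the interaction.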
